A study of Hordeum vulgare with 12 samples.

Results

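The barley mutant blf13 was compared with Bonus, the cultivar in whose background it stands, by RNA-seq of the shoot base. The comparison uses 6 of the 12 libraries of the study, 3 of blf13 and 3 of Bonus, chosen by their labelled genotype. Each library was made from a pool of 6 plants that were 7 days old, and the labels call the 3 libraries of a genotype biological replicates. The sampled piece was the lowest centimetre of the shoot with its apex, taken after leaf 1 had been removed. The labels name no treatment and no other allele in either genotype. They do not say how far the line is otherwise identical to Bonus, so the allele and other sequence differences of the line cannot be told apart in these counts. The other 6 libraries came from nal1, a second mutant, and from Sebastian, the different cultivar that is its wild type. Here they give values for genes found in blf13, and they enter those fits of blf13 against Bonus that are named as using 12 libraries.

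NARROW LEAF1 is a rice protein with a trypsin-like serine protease fold that controls leaf width and plant stature, and rice plants that lack it have narrow leaves with fewer veins. Per the series title, the blf13 allele is a gain of function in barley's version of this gene, and its leaves are wider. A grass leaf grows from its base, so the basal centimetre holds the shoot meristem, leaf primordia and the dividing and elongating zones of young leaves. In such bulk tissue, fewer cells of a type and less RNA per cell cannot be told apart. The leaf width of these plants was not analysed here. The files give gene IDs of the form HORVU.MOREX.r3, in which the chromosome can be read, but no gene names, and 0 of 81687 IDs matched the barley reference table. Roles of genes, the NARROW LEAF1 gene itself and markers of the apex or leaf were therefore not analysed here, and neither the tissue nor the mutated gene could serve as a check of the labels. In each direction 2 genes are named.

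Reads counted in genes came to 38495728, 26717701 and 28083581 in blf13 libraries 1, 2 and 3, and to 20207646, 29173654 and 21974527 in Bonus libraries 1, 2 and 3. Between 29346 and 31138 genes had at least 1 read in a blf13 library, against 28097 to 28966 in a Bonus library. Unmapped reads were 13.6%, 29.8% and 11.9% of the blf13 libraries and 14.1%, 16% and 10.3% of the Bonus libraries, in the same order. Library number 2 thus had the highest unmapped share of its genotype in both genotypes, and number 3 the lowest. The part of these shares in the results was not tested other than by leaving out a pair of libraries.

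The 6 libraries differed first by genotype and then by library number. The first principal component of log2(CPM + 0.25), where CPM is the count scaled to library size, held 44.7% of the variance. It placed the blf13 libraries at −23.1, −25.9 and −10.9 and the Bonus libraries at 18.7, 28.4 and 12.7, so the genotypes did not overlap and number 3 lay nearest to the other genotype on both sides. The second component held 22.6% and put the numbers in the same order in both genotypes, at 1.65, 16.7 and −17.2 in blf13 libraries 1, 2 and 3 and at 0.554, 18.6 and −20.3 in Bonus libraries 1, 2 and 3. Deviations from the genotype mean correlated across 18198 genes with r of 0.255, 0.275 and 0.257 for same-numbered libraries, and with −0.183 to −0.0846 for the 6 pairings of different numbers. Deviations of the 3 libraries of a genotype cancel out for each gene. Values for different numbers therefore tend to be negative once the same-numbered ones are positive, and add no separate evidence. All of these r values are across genes, which are not independent, and describe the libraries. Same-numbered libraries were treated as pairs because of the positive r between them. What the number stands for is not stated in the labels.

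**Figure D1:**
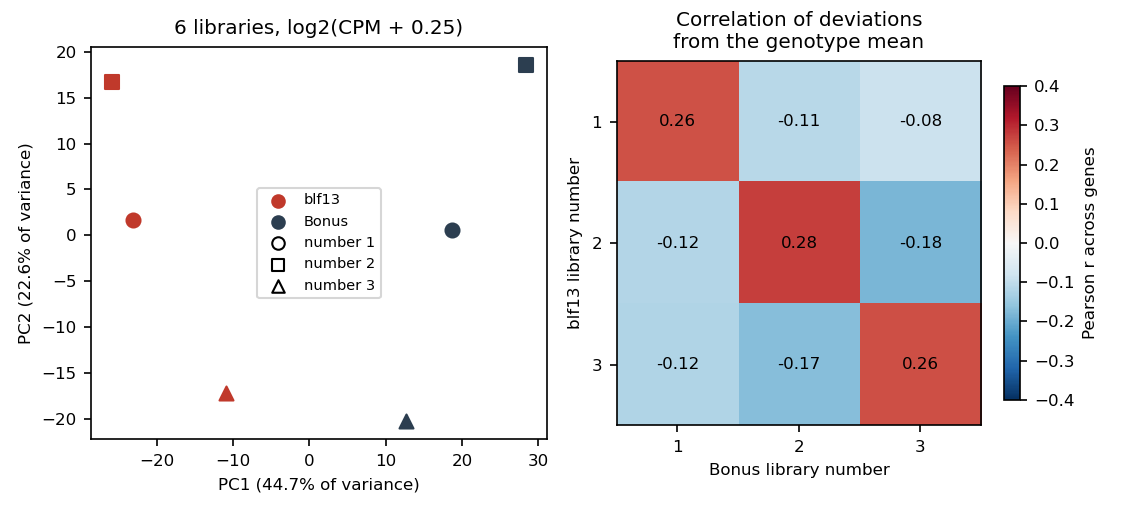
Left, the first and second principal components of the 3 blf13 and 3 Bonus libraries, with colour for genotype and symbol for library number. Right, Pearson r across 18198 genes between the deviations of each blf13 and each Bonus library from its genotype mean. The 3 same-numbered cells are positive (0.255 to 0.275). The other 6 are negative, as deviations from a genotype's own mean tend to make them when the same-numbered cells are positive.

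With the number as a block in the model, few transcripts passed a test of the number itself. With 2 residual degrees of freedom, the others are not shown to be equal between numbers. At an adjusted p under 0.05, 38 of 21056 genes (0.18%) differed between the 3 numbers (edgeR quasi-likelihood F test). Against number 1, number 2 had 12 higher and 0 lower genes, while number 3 had 0 higher and 3 lower genes and, against number 2, 0 higher and 28 lower genes. Over all genes tested the median absolute log2 difference between numbers was 0.0877 to 0.115, and that between genotypes was 0.131. The block lowered the common coefficient of variation between libraries to 8.15%, against 11% with genotype alone. Of the 198 genes called changed between the genotypes, 7 (3.54%) were also among the 38 that differed between numbers, which is 18.4% of that list.

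Of 21056 genes tested, 198 (0.94%) passed the edgeR test of blf13 against Bonus at a Benjamini-Hochberg adjusted p under 0.05. Of these, 130 (0.617%) were higher and 68 (0.323%) lower in blf13. The smallest adjusted p was 1.32e-06, and 3961 genes (18.8%) had an unadjusted p under 0.05. The 198 genes had a median absolute log2 fold change of 1.26, where the median over all genes tested was 0.131. The median log2 fold change was 1.38 among the higher and −0.90 among the lower genes. The smallest change that passed was 0.29 on the log2 scale. In 197 of the 198 genes all 3 pairs moved the same way, as they did in 41.3% of all genes tested, and in 176 the 3 blf13 and 3 Bonus libraries did not overlap, as in 22.3% of all. These shares describe genes that were chosen by the same contrast.

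These counts rested on single pairs of libraries. Without pair 2, the one with the most unmapped reads, 61 genes were higher and 27 lower in blf13. Without pair 3 they were 1464 and 1763, and without pair 1 they were 142 and 56. Of the 130 higher and 68 lower genes, 81 and 38 were called again without pair 1, and 56 and 26 without pair 2. Without pair 3 all of them were. In the fit with genotype alone, which gave 105 higher and 52 lower genes, leaving out blf13 library 1, 2 or 3 gave 64, 68 and 320 higher and 28, 32 and 302 lower genes. Leaving out Bonus library 1, 2 or 3 gave 56, 67 and 193 higher and 30, 27 and 150 lower genes. Across these fits without a single library, 53 to 109 of the 130 higher and 26 to 51 of the 68 lower genes were called again. With all 12 libraries and the block set within each cultivar, 200 genes were higher and 193 lower, so that the share of higher genes was 50.9% in place of 65.7%. All 68 lower genes and 111 of the 130 higher genes were among those. DESeq2, on the 6 libraries with the block, turned the balance, with 182 higher and 217 lower genes (45.6% higher).

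Each pair was also set against genes called from the other pairs alone, so that its libraries had no part in the test itself. Only genes that had been tested in all 6 libraries were counted here, so the held-out pair had a part in which called genes were counted. This kept 111 of 142 genes called higher without pair 1, 61 of 61 without pair 2 and 1341 of 1464 without pair 3. How far this raised the shares below was not tested. Of 61 genes called higher from pairs 1 and 3, 60 were higher in blf13 in pair 2, with a median log2 ratio of 2.01 there, and all 27 called lower were lower, with a median of −1.56. Of 111 genes called higher from pairs 2 and 3, 89 were higher in pair 1, at a median log2 ratio of 1.12 there against 2.26 in the pairs that chose them, and 53 of 56 called lower were lower, at −0.85 against −1.46. In pair 3 the ratios of genes called from the other pairs were nearest to 0, but those lists were by far the longest and held the smallest changes. Of 1341 genes called higher from pairs 1 and 2, 887 were higher in pair 3, at a median log2 ratio of 0.12 against 0.74 in the pairs that chose them, and 1249 of 1749 called lower were lower, at −0.07 against −0.36. Over all genes, 50.2% to 52.4% lay above 0 in a held-out pair. For the 130 higher genes of the full fit, the median log2 ratio was 1.27, 1.33 and 1.06 in pairs 1, 2 and 3. For the 68 lower genes it was −0.82, −0.86 and −0.85. All 3 pairs had a part in choosing those genes.

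Among genes present in both genotypes, the smallest p-values decided which genes are named. Candidates had passed the test, showed no overlap between the 3 blf13 and 3 Bonus libraries and the same direction in all 3 pairs, and reached at least 1 CPM in both genotypes; 70 higher and 45 lower genes did so. CPM values use TMM library sizes and are not corrected for transcript length.

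HORVU.MOREX.r3.1HG0095330 on chromosome 1H stood at 86.6, 90.2 and 99.3 CPM in blf13 libraries 1, 2 and 3, against 20.9, 20.4 and 24.8 CPM in Bonus libraries 1, 2 and 3. The lowest blf13 library was thus far above the highest Bonus library, and library 3 was the highest of its genotype in both. Mutant and wild type averaged 92 ± 6.51 CPM (blf13) and 22 ± 2.42 CPM (Bonus), as mean ± SD with n = 3 each. The log2 fold change was 2.07, with an SE of 0.06 and an edgeR adjusted p of 2.06e-05. Within pairs 1, 2 and 3 the log2 ratio was 2.04, 2.13 and 1.99. In nal1 this gene was lower than in Sebastian, at 5.08 ± 0.16 against 17.1 ± 1.67 CPM (SD, n = 3 each; log2 fold change −1.74, edgeR adjusted p = 3.44e-05).

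HORVU.MOREX.r3.5HG0437300 on 5H had 28.5, 32.9 and 26.5 CPM in blf13 libraries 1, 2 and 3, against 6.22, 5.91 and 6.56 CPM in Bonus libraries 1, 2 and 3. The Bonus libraries lay close together, and every blf13 library was several times above them. The average was 29.3 ± 3.26 CPM over the blf13 libraries and 6.23 ± 0.32 CPM over the Bonus libraries (SD, n = 3 each). This was a log2 fold change of 2.23, with an SE of 0.11 and an edgeR adjusted p of 0.0002. In nal1 and Sebastian it stood at 6.04 ± 0.49 and 6.94 ± 0.51 CPM (SD, n = 3 each; edgeR adjusted p = 0.235), levels near that of Bonus.

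HORVU.MOREX.r3.2HG0158350 on 2H was the lower gene with the smallest p among the candidates. It had 8.36, 8.20 and 8.22 CPM in blf13 libraries 1, 2 and 3, against 17.5, 16.7 and 16.6 CPM in Bonus libraries 1, 2 and 3. Both genotypes were tight, at 8.26 ± 0.084 CPM for blf13 and 16.9 ± 0.52 CPM for Bonus (SD, n = 3 each). The log2 fold change was −1.03, with an SE of 0.09 and an edgeR adjusted p of 0.00334. The log2 ratio was −1.05, −1 and −0.99 within pairs 1, 2 and 3. The level was 19.8 ± 1.11 CPM in nal1 and 19.2 ± 0.54 CPM in Sebastian (SD, n = 3 each; edgeR adjusted p = 0.731).

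HORVU.MOREX.r3.4HG0413000 on 4H was the more variable of the lower genes named. It had 1.83, 1.72 and 1.23 CPM in blf13 libraries 1, 2 and 3, against 6.87, 5.09 and 4.37 CPM in Bonus libraries 1, 2 and 3. In both genotypes library 1 was the highest and library 3 the lowest, and the groups did not overlap. The average was 1.59 ± 0.32 CPM for blf13 and 5.44 ± 1.29 CPM for Bonus (SD, n = 3 each). Its log2 fold change was −1.77, with an SE of 0.16 and an edgeR adjusted p of 0.00406. The level was 4.85 ± 0.75 CPM in nal1 and 4.93 ± 0.031 CPM in Sebastian (SD, n = 3 each; edgeR adjusted p = 0.918).

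**Figure D2:**
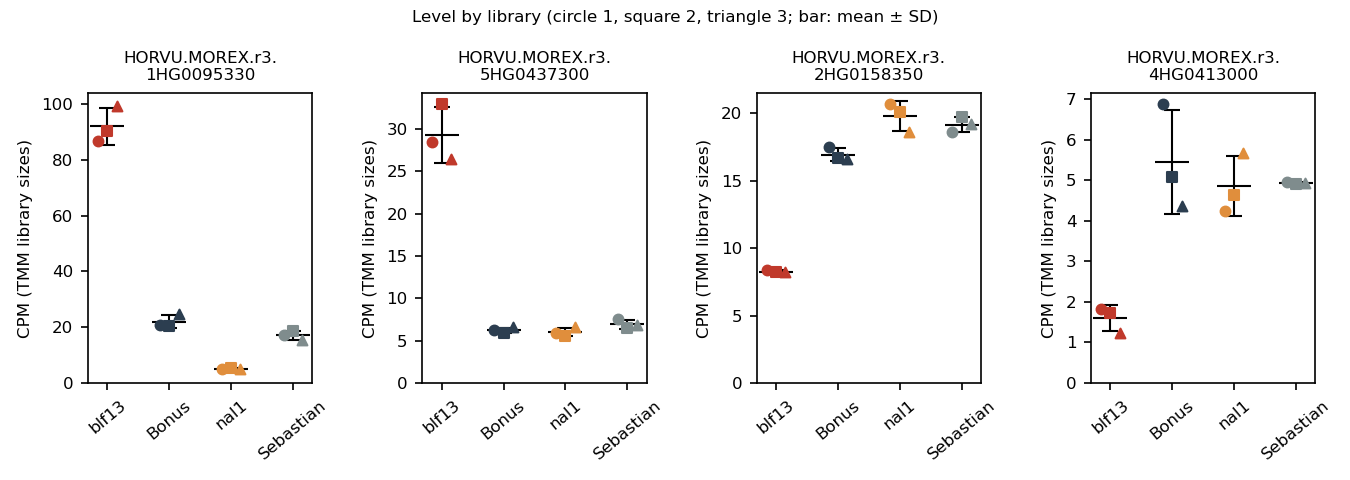
CPM of the 4 named genes in each library of blf13, Bonus, nal1 and Sebastian, with the library number as symbol and a bar for the mean ± SD. The blf13 libraries stand apart from the Bonus libraries in all 4 panels, and HORVU.MOREX.r3.1HG0095330 is also lower in nal1 (5.08 CPM) than in Sebastian (17.1 CPM).

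The higher and the lower genes differed in size of change and in level. Of the 130 higher genes, 88 rose by 2-fold or more, and 28 of these by 8-fold or more. Of the 68 lower genes, 31 fell by 2-fold or more, and 14 of these by 8-fold or more. When a minimum fold of 1.5 was tested for (edgeR glmTreat), 66 genes passed (0.313% of those tested), 45 higher and 21 lower. These counts also moved with the pairs. Changes of 2-fold or more numbered 127 higher and 39 lower without pair 1, 45 and 18 without pair 2, and 561 and 119 without pair 3. Past the minimum of 1.5-fold there were 82 higher and 22 lower genes without pair 1, 30 and 14 without pair 2, and 247 and 62 without pair 3. The median level over the 6 libraries was 5.39 CPM for the higher genes and 12.8 CPM for the lower genes, with 10.5 CPM for all genes tested.

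Changes under 2-fold are described apart, though sizes ran on across that limit. They comprised 42 higher genes, with a median level of 21.1 CPM and a median log2 fold change of 0.66. The 37 lower genes had a median level of 104 CPM and a median log2 fold change of −0.55. Among called genes the median absolute log2 fold change fell from 3.76 under 1 CPM to 0.33 above 100 CPM. Small changes pass more readily in well-counted genes, and the part of this in the levels was not tested. Of the 37 lower genes, 19 stood above 100 CPM, up to 3670 CPM, while 2 of the 42 higher genes did; this balance depended on the scaling, as given next. In 34 of the 37 and 35 of the 42 genes, the 3 blf13 and 3 Bonus libraries did not overlap, as in 22.3% of all genes tested. The 37 and 42 genes were chosen by the same contrast, which favours such a gap. 

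By level, 16 genes were higher and 5 lower under 1 CPM (of 2858 tested), and 66 were higher and 25 lower from 1 to 10 CPM (of 7472). From 10 to 100 CPM, 46 were higher and 19 lower (of 8678). Above 100 CPM the balance turned, with 2 higher and 19 lower genes (of 2048). The median log2 fold change of all genes tested, called or not, also fell along these classes, from 0.19 under 1 CPM through 0.09 and −0.01 to −0.07 above 100 CPM. With cyclic loess normalization, which takes out a trend with level, the class above 100 CPM held 10 higher and 6 lower genes and its median was 0.01. The direction among abundant transcripts thus depended on the scaling.

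**Figure D3:**
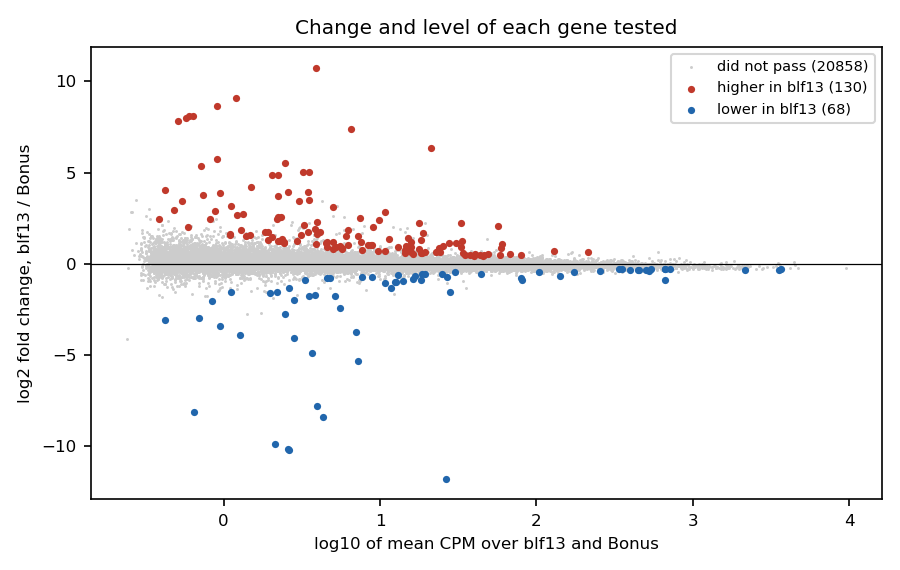
Log2 fold change of blf13 over Bonus (vertical) against the log10 of mean CPM (horizontal) for 21056 genes, with the 130 higher genes in red and the 68 lower genes in blue. Large changes lie at low to moderate levels, and the called genes at the right end, above 100 CPM, are small changes, mostly lower with this TMM scaling but not with loess normalization (10 higher and 6 lower).

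Among the changes of 8-fold or more, the genotype with less transcript averaged under 1 CPM in every gene. The 28 higher genes had means of 0.794 to 42.1 CPM in blf13 (median 3.4) and of 0 to 0.949 CPM in Bonus (median 0.104). The 14 lower genes had means of 0 to 0.976 CPM in blf13 (median 0.0587) and of 0.763 to 52.6 CPM in Bonus (median 5.3). The groups did not overlap in 27 of the 28 and 13 of the 14 genes, as in 22.3% of all genes tested. Choosing genes by a large difference between these same libraries favours such a gap. In 34 of the 42 genes the 3 libraries of the genotype with the higher level lay within 2-fold of each other; in the other 8 they differed by up to 39-fold, so single libraries carry part of those means.

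In 7 of the 28 higher genes, Bonus had no read in any library. These had 100 to 738 reads summed over the 3 blf13 libraries, a median of 120, and stood at 1.02 to 7.78 CPM in blf13. With 3 counts over the Bonus libraries in sum as the floor, they were at least 24.1-fold to at least 178-fold higher in blf13. In 4 of the 14 lower genes, blf13 had no read, and Bonus had 88 to 355 reads in sum, at 1.29 to 5.21 CPM. Against the same floor in blf13, they were at least 40.5-fold to at least 163-fold lower. These bounds cover counting error only.

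Sebastian and nal1, whose libraries had no part in choosing these genes, showed which state another cultivar had. Of the 42 genes changed 8-fold or more, 12 (28.6%) had at most 3 reads in sum over the 3 libraries of nal1 and likewise over those of Sebastian. A gene this low in 1 genotype passes the filter on low counts through the other, so this share is given as a description. No comparison with other genes is drawn from it. Sebastian's mean log2 level lay nearer to that of blf13 for 3 of the 28 higher and for 7 of the 14 lower genes. Over the 42 genes together this was 23.8%, near the 25% of the 156 genes changed less than 8-fold, and the share over all genes tested was 45.2%. The 12 genes with at most 3 reads, 8 of the 28 and 4 of the 14, fall on the side of the lower genotype by that alone. Over all genes tested the median absolute log2 fold change was 0.131, so being nearer to either genotype means little there. These shares are descriptions, and no conclusion is drawn from them. Among the genes with no read in Bonus, 1 of 7 reached 1 CPM in Sebastian, and among those with no read in blf13, 2 of 4 did.

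**Figure D4:**
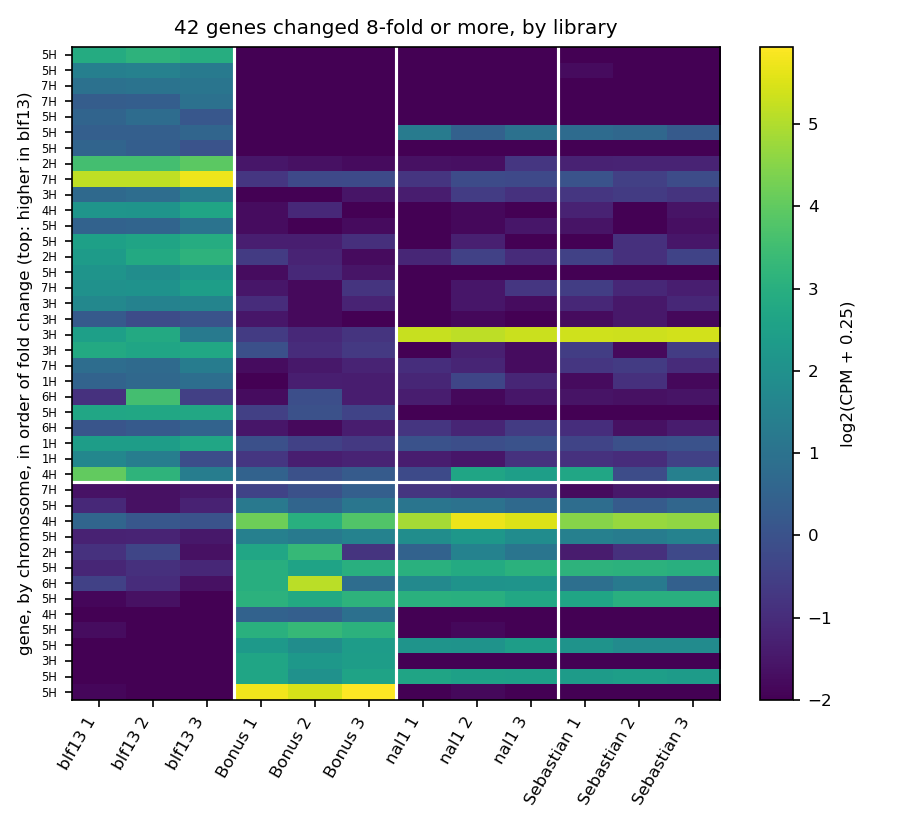
Levels, as log2(CPM + 0.25), of the 42 genes changed 8-fold or more, with 1 row per gene (28 higher in blf13 above the white line, 14 lower below it, labelled by chromosome) and 1 column per library. In most upper rows the blf13 libraries alone are bright, and the lower rows range from genes dark in nal1 and Sebastian, through intermediate levels, to genes at or above the level of Bonus there.

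Changed genes were found on all 7 chromosomes, 1 was in an unplaced sequence, and 5H held the most. On 5H, 31 genes were higher and 16 lower, 1.41% of the 3340 tested there, while the other 6 chromosomes had 0.63% to 1.05%. Of all 198 changed genes 23.7% lay on 5H, which holds 15.9% of the genes tested. For changes of 8-fold or more the share was 40.5%, or 17 of 42 genes, 9 higher and 8 lower. In all 17 of these, the libraries of the higher genotype lay within 2-fold of each other, as they did in 17 of the 25 elsewhere. Without pair 2 the share on 5H was 45.5% of 33 genes, and without pair 3 it was 26.5% of 113 genes.

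On 5H itself the large changes were unevenly spread in ID order, which the files give in place of coordinates. Among the first 1500 genes tested, 31 (2.07%) were changed and 16 were changed 8-fold or more, 8 in each direction, and HORVU.MOREX.r3.5HG0437300 is one of the 31, at rank 323. Among the remaining 1840 genes, 16 (0.87%) were changed, 1 of them 8-fold or more. The rest of the genome stood at 0.852%. The limit of 1500 was chosen after the values were seen.

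Changed genes were also counted in bins of up to 100 consecutive tested genes over the whole genome. Of 215 bins, 96 held no changed gene, 74 held 1, 26 held 2 and 11 held 3. Another 8 held 4 or more, 3 of these on 5H. How many such bins genes placed at random would give was not tested. The bins named next were picked after the values were seen, that of 3H for its count and those of 4H and 6H for a single direction. The other bins with 4 or more changed genes held both directions. On 5H, ranks 301 to 400 held 4 higher and 2 lower genes, and ranks 701 to 800 held 2 higher and 4 lower genes. A bin of 3H (ranks 2701 to 2800) had 5 higher genes and 1 lower gene. A bin near the end of 4H (ranks 2401 to 2500) had 4 changed genes, all lower in blf13, among them HORVU.MOREX.r3.4HG0413000 at rank 2446. The first 100 genes tested on 6H likewise held 4 lower genes and no higher one. Over all chromosomes, 18 pairs of genes adjacent in rank were both changed, 6 of them on 5H. Both members had the same direction in each of the 18 pairs, higher in 10 and lower in 8. How often changed genes paired at random would share a direction was not tested. Of the 42 genes changed 8-fold or more, 28.6% had a changed neighbour, against 3.8% of the 79 genes changed less than 2-fold and 1.83% of all genes tested. The library does not mark strand, and reads lying in several overlapping genes were assigned to none of them. Whether these neighbours overlap was not tested.

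**Figure D5:**
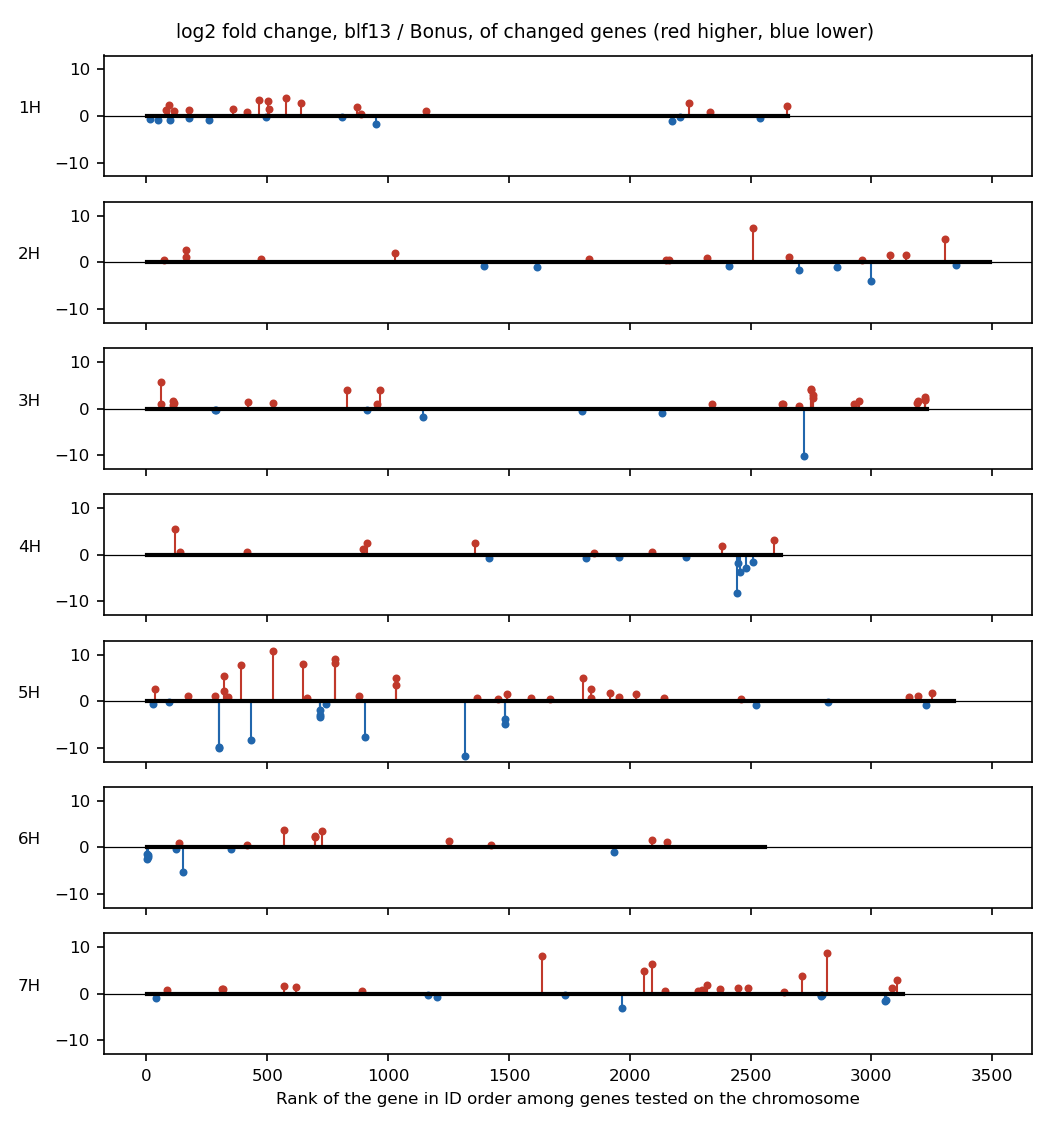
Log2 fold change of blf13 over Bonus of each changed gene, by rank in ID order among the genes tested on its chromosome (red higher, blue lower). The first 1500 ranks of 5H hold 16 of the 42 changes of 8-fold or more, in both directions. The changed genes in ranks 2401 to 2500 of 4H are all lower.

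The same genes were then followed in nal1 against Sebastian, a comparison that shares no library with blf13 against Bonus. There, 3187 of 21151 genes tested (15.1%) passed the edgeR test, 8.15% higher and 6.92% lower in nal1. Of the 130 genes higher in blf13, 101 were tested, and 25 of them were lower and 8 higher in nal1 (32.7%), with a median log2 fold change of −0.09. Of the 68 genes lower in blf13, 61 were tested, and 17 were lower and 13 higher in nal1 (49.2%), with a median of 0.03. The 63 genes that changed in both comparisons were 31.8% of the blf13 list and 1.98% of the nal1 list. The median over all genes tested in blf13 was 0.01, with 15.1% called. These shares were not matched for level or spread, which affect how readily a gene passes in any comparison.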

How the data were processed

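The deposited files hold raw read counts per gene, 1 file per library, laid out as STAR writes gene counts, and the submitters' processing notes name STAR 2.7.3a. Per the labels' protocols, TRIzol was used for RNA and a NEBNext Ultra RNA kit for the libraries, which does not mark strand. Genome build and trimming: not given in the sources used here. STAR assigns no gene to a read with several map positions or several overlapping genes, so near-identical copies are undercounted.

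Counts made without regard to strand were taken for 81687 gene IDs. The 4 summary lines, 15.7% to 37.9% of the reads of a blf13 or Bonus library, stayed out of library sizes and tests. Replicates differed by 5.21 to 11 times sampling noise (chi-square per degree of freedom), and none was taken as a copy of another. The 6 libraries were fitted with edgeR 4.0.16 in R 4.3.3 (TMM, filterByExpr, quasi-likelihood F test), with genotype and library number as terms and 2 residual degrees of freedom. The numbers were taken to pair the libraries because the deviations of all 3 same-numbered pairs correlated above 0.1. nal1 and Sebastian were fitted apart with genotype alone; their CPM use TMM factors of all 12 libraries. Standard errors were derived from the F statistic. P-values measure the spread between these pools. Alternatives included limma 3.58.1 (voom) and DESeq2 1.42.0. Named genes were the 2 higher and 2 lower candidates of smallest p. Gene lists prepared by product name could not be used without names, and no sequence is given. The comparison, the pairing, the lists and the level classes were chosen with earlier results of these data known.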

Additional observations from a re-analysis of the deposited data

Results flagged for a closer look

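For all 4 named genes, the effect of blf13 over Bonus differed from the effect of nal1 over Sebastian when the difference itself was tested in 1 edgeR fit of 12 libraries with library numbers as blocks within each cultivar, where 953 of 22437 genes (4.25%) passed. The log2 difference between both effects was 3.79 for HORVU.MOREX.r3.1HG0095330 (SE 0.09, edgeR adjusted p = 1.05e-07), which was higher in all 3 blf13 libraries and lower in all 3 nal1 libraries than in any library of the wild type. It was 2.40 for HORVU.MOREX.r3.5HG0437300 (SE 0.15, edgeR adjusted p = 4.46e-05), −1.10 for HORVU.MOREX.r3.2HG0158350 (SE 0.11, edgeR adjusted p = 0.00077) and −1.78 for HORVU.MOREX.r3.4HG0413000 (SE 0.20, edgeR adjusted p = 0.0017). The genes were chosen for a small p in blf13, so a difference in favour of blf13 was built into that choice.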

How the results depend on the processing

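All 4 named genes kept their direction and passed under all 17 alternatives, the highest adjusted p being 0.04, for HORVU.MOREX.r3.4HG0413000. They were chosen for a small p, no overlap and the same direction in all pairs. The alternatives reuse all or some of those libraries, so passing was favoured by that choice. Without the replicate block 105 genes were higher and 52 lower, and 90 and 43 of the original 130 and 68 were among them. With 12 libraries, the higher and lower genes were 200 and 193 with the block within cultivar (49 lower by 2-fold or more) and 271 and 445 without it (55 lower by 2-fold or more). DESeq2 called 182 genes higher and 217 lower in blf13. With low counts kept in, there were 805 higher and 613 lower genes, 362 and 81 by 2-fold or more, 155 and 49 past a 1.5-fold threshold, and 512 that differed between library numbers. Leaving out single libraries or pairs gave 56 to 1464 higher and 27 to 1763 lower genes, 44 to 561 and 18 to 119 by 2-fold or more, and 30 to 247 and 11 to 62 past 1.5-fold; the cause of these shifts was not tested. For 8-fold changes, counted in this way after the data were seen, 33 genes were called without pair 2 and 113 were called without pair 3. With 2 residual degrees of freedom, genes that missed the threshold are not shown to be equal.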
